A study of Rattus norvegicus with 19 samples.

Results

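The Kcnf1 locus on rat chromosome 6 was described through every transcriptionally active putative enhancer (TAPE) that the deposited table paired with Kcnf1, together with Kcnf1 mRNA itself. A TAPE is a stretch of open chromatin outside genes from which RNA was read on both strands. The table paired each TAPE with every gene whose start site lay within 1 Mb of the TAPE centre, and the members were all rows that named Kcnf1, which gave 43 of the 27538 TAPEs. Total RNA of cultured Sprague-Dawley rat neurons, depleted of ribosomal RNA, was sequenced with the strand kept. The cells came from the cortex, hippocampus or striatum of embryos (embryonic day 18), and after 11 days in vitro the cultures received vehicle (neurobasal media) or potassium chloride (KCl), which depolarizes neurons, for 1 h. The 19 libraries formed 6 groups of 3 libraries, apart from striatum vehicle with 4. The study's supplementary methods instead list 3 vehicle and 4 KCl striatum libraries, and the titles were used here. For the depolarization-induced early genes named below, every striatum library titled KCl lay above every one titled vehicle. No group carried a transgene or a gene deletion, and the cultures held mixed cells of a dissected region rather than sorted neurons. Sample labels give a KCl concentration of 25 mM, whereas the design text of the series gives 10 mM. Cortex vehicle replicate 3 was cortical by its title but striatal by its tissue label, and it was grouped by its title. It lay nearer to the other cortex libraries than to the striatum libraries for 13 of 13 cortical and striatal marker genes. Without it, the Kcnf1 mRNA response and the numbers of TAPEs called between regions, given below, were 0.899 SD units (exact permutation adjusted p = 0.00316) and 4, 1, 4 and 3, against 0.909 and the same numbers with it.

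Kcnf1 encodes Kv5.1, a subunit of voltage-gated potassium channels that is called electrically silent because it forms no working channel by itself. Silent subunits join pore-forming subunits and change how the joint channel opens and closes, while other voltage-gated potassium channels bring a depolarized neuron back towards rest. Enhancers are regulatory DNA elements that can act on genes over long distances, many are transcribed on both strands, and the RNA read from them is used as a sign of their activity.

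In the Rn6 assembly, the coordinates of the deposited table, Kcnf1 covered chr6:42471066-42473738 on the minus strand, with its start site at 42473738, so that lower coordinates lay downstream of the gene. The promoter of Kcnf1 is shown because it is the element whose output, Kcnf1 mRNA, was followed below. It is the RefSeq sequence from 250 bases before to 50 bases after the start site, in the GRCr8 assembly (chr6:45693657-45693956, minus strand), an assembly other than that of the table, and capitals mark matches to the E-box CANNTG, a short element read by basic helix-loop-helix factors.
Kcnf1 promoter: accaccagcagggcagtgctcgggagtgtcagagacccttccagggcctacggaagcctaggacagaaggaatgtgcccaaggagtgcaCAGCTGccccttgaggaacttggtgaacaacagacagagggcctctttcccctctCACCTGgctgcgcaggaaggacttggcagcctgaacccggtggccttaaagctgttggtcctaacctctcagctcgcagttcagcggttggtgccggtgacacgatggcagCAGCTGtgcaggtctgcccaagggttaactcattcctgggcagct
The 300 bases held 3 such matches, 2 of CAGCTG and 1 of CACCTG, and 72.1% of the 33469 rat promoters of this length held at least 1 match. On either strand, no match was found to TGACGTCA, the full cAMP response element (in 1.83% of promoters), to its shorter form TGACG, which the full element contains (21.2%), or to the AP-1 element TGANTCA (7.33%). GC content was 59.7%, against a median of 51.7% over all promoters.

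Kcnf1 mRNA was highest in cortical cultures, and it rose with KCl. The table holds no gene values, but its correlations between Kcnf1 and TAPEs of known value determine the Kcnf1 value of each library up to scale. The resulting profile is in SD units, in which the 19 values have a mean of 0 and an SD of 1, and it has no true zero. Cortex vehicle libraries stood at 0.075, 0.260 and 0.075, and cortex KCl libraries at 2.360, 1.778 and 2.032. Hippocampus vehicle libraries stood at -1.023, -1.002 and -1.025, and hippocampus KCl libraries at -0.618, -0.611 and -0.676. Striatum vehicle libraries stood at -0.467, -0.566, -0.348 and -0.276, and striatum KCl libraries at 0.085, -0.029 and -0.025. Every KCl library thus lay above every vehicle library of its own region, in each of the 3 regions, as did 2.47% of the 15191 genes with a profile (8.39% in cortex, 8.51% in hippocampus and 8.15% in striatum taken alone). Every cortex KCl library also lay above all 16 other libraries, which held for 1.78% of genes.

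**Figure D1:**
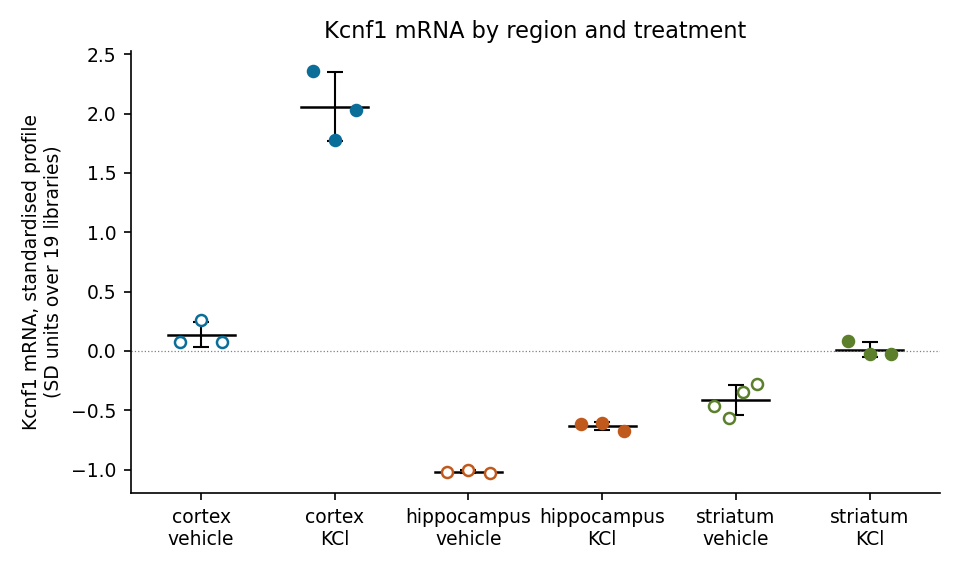
Kcnf1 mRNA in each library (vertical axis, SD units of the standardised profile over 19 libraries) by region and treatment. Open points are vehicle and filled points KCl libraries, and lines and bars give the group mean and SD; the 3 cortex KCl libraries sit between 1.778 and 2.360, above all others.

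The KCl minus vehicle difference was 1.92 SD units in cortex (SE 0.179), 0.382 in hippocampus (SE 0.022) and 0.425 in striatum (SE 0.074). Averaged over the 3 regions it was 0.909, with an exact two-sided permutation p of 7.1e-05, the smallest that 14000 arrangements of treatment labels within regions can give, and a Benjamini-Hochberg adjusted p of 0.0017 over all genes. By this test 23.6% of genes were called, 6.81% higher and 16.8% lower with KCl. Within a single region, 3 libraries against 3 cannot go below an exact p of 0.1, the value found in cortex and in hippocampus. In striatum the exact p was 0.0571, the smallest possible when the smaller tail is doubled, as was done within single regions. The test over the 3 regions instead counted arrangements with an absolute difference at least as large.

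Without a zero no fold change can be computed, but because no library can be below 0, a limit follows from the lowest library. The cortical group mean rose by at most 2.65-fold and the striatal one by at most 1.7-fold. The absolute rise in cortex was 5.03 times that in hippocampus and 4.52 times that in striatum. As a proportion of the vehicle level, the cortical rise was between 2.38 and 4.52 times the striatal one wherever the zero lies, while for hippocampus the zero decides which proportion is larger. These differences between regions are descriptions without a test. Under vehicle the group means were ordered cortex (0.136 ± 0.107 SD, n = 3), striatum (-0.414 ± 0.129 SD, n = 4) and hippocampus (-1.017 ± 0.013 SD, n = 3), and their libraries did not overlap. Under KCl the order was again cortex, striatum and hippocampus, but striatum KCl libraries (-0.029 to 0.085) overlapped with cortex vehicle libraries (0.075 to 0.260). The study chose Kcnf1 as an example of its regional pattern, so this order was not tested. In bulk cultures, fewer cells of a type and less RNA per cell cannot be told apart.

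The 43 TAPEs were spread unevenly around the gene. Of these, 31 lay downstream and 12 upstream, and 15 lay within 100 kb of the start site, 10 of them downstream. Only 3.8% of genes were paired with more TAPEs, against a median of 20 per gene. Members were about as long as other TAPEs, with a median of 1829 bases (range 1198 to 3411) against 1807 bases over all TAPEs. Most were barely transcribed. Summed over the 19 libraries, the 43 TAPEs held 1125 reads, with a median of 12 reads per TAPE (range 3 to 271) against 14 over all TAPEs. TAPE levels are given as CPKM, the authors' reads per kilobase of TAPE and per 1000000 reads of the library. A mean CPKM of at least 0.01, about 1 read per library, was reached by 11 of the 43 TAPEs (25.6%, against 37.2% of all TAPEs), and the tests below cover those 11. The 32 others held 3 to 36 reads each.

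By region, the mean CPKM was highest in cortex for 19 of the 43 TAPEs, in hippocampus for 12 and in striatum for 12. No read was found in any cortex library for 5 TAPEs, in any hippocampus library for 8 and in any striatum library for 12. The same counts over all TAPEs were not computed, and the median member held 12 reads. These counts therefore cannot show that the locus leans towards a region more than other TAPEs do. Summed over all 43 TAPEs, cortex libraries held 1.06 to 1.63 reads per 1000000 library reads, hippocampus libraries 0.354 to 0.913 and striatum libraries 0.882 to 1.46. Cortex therefore lay above hippocampus in every library and overlapped with striatum. Without the pair of TAPEs described next, the sums were 0.819 to 1.43 in cortex, 0.354 to 0.844 in hippocampus and 0.882 to 1.38 in striatum. Between treatments these sums overlapped in every region, for example 1.06 to 1.52 in cortex vehicle and 1.17 to 1.63 in cortex KCl.

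The deposited correlation between TAPE RNA and Kcnf1 mRNA over 19 libraries, Pearson's r, was above 0.5 for 6 of the 43 TAPEs (14%, against 5.3% of all TAPE-gene pairs) and below -0.5 for 0. Its median was -0.0009, against 0.0014 over all pairs. TAPEs of high r lay near the gene and far from it: 2 of the 15 TAPEs within 100 kb and 4 of the 28 farther away had an r above 0.5, with medians of -0.0407 and 0.0357. Of the genes that shared a TAPE, 9 to 22 per TAPE, Kcnf1 had the highest r for 7 TAPEs and the nearest start site for 10, and both held for a single TAPE, 13.5 kb downstream. The same ranks over all TAPEs were not counted, so these counts are a description only. No TAPE had an r above 0.5 in each of the 3 regions taken alone. These correlations share their libraries and differences between regions, and no p is given for them.

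**Figure D2:**
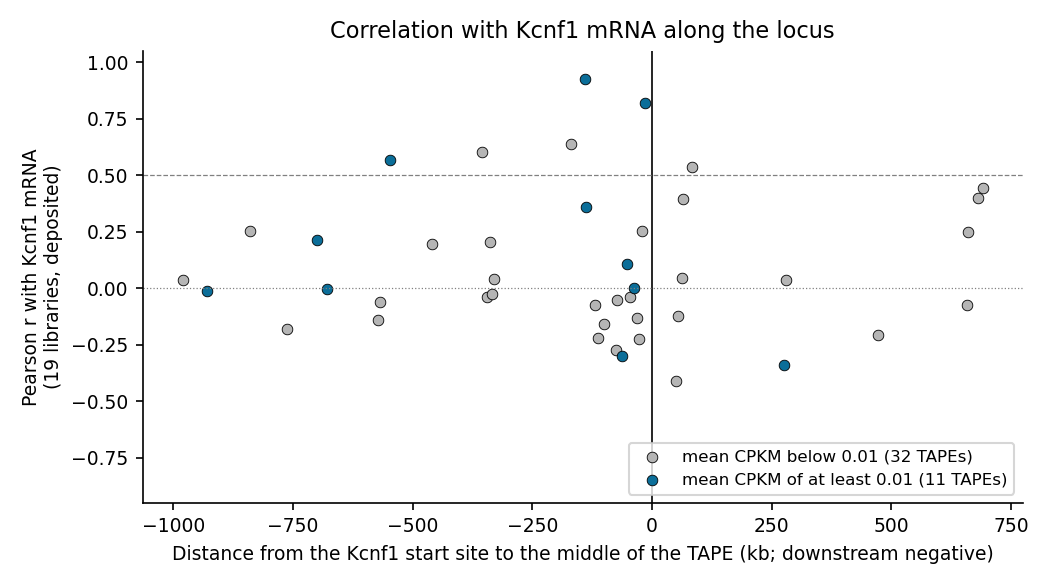
Deposited Pearson r of each TAPE with Kcnf1 mRNA over 19 libraries (vertical axis) against the distance in kb from the Kcnf1 start site to the TAPE centre (horizontal axis, downstream to the left). Dark points are the 11 TAPEs that were tested (mean CPKM 0.01 or more) and grey points the other 32; most points lie near 0, and 6 lie above the dashed line at 0.5.

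A pair of downstream TAPEs had the highest r with Kcnf1 mRNA of the locus. Kcnf1 mRNA was itself highest in cortex KCl libraries, so a choice by r favours TAPEs high in those libraries. The library orders given below, with their shares of TAPEs, restate that choice in part and are not separate support. The TAPE at chr6:42331777-42334954 had the highest r of the locus, 0.925. Its centre lay 140.4 kb downstream of the start site, and the nearest start site was that of LOC690276. In cortex vehicle libraries its CPKM was 0.0404, 0.0174 and 0.0187, and in cortex KCl libraries 0.0949, 0.0688 and 0.0736. In hippocampus it held reads in 1 of 3 vehicle libraries (0.0108) and 1 of 3 KCl libraries (0.0110), and in striatum in none of 4 vehicle libraries and 1 of 3 KCl libraries (0.0119). All 6 cortex libraries thus lay above all 13 libraries of the other regions, which held for 0.508% of the 10231 tested TAPEs, and all 3 cortex KCl libraries lay above the 3 cortex vehicle libraries (4.51% of tested TAPEs). In reads, 59 of its 65 came from cortex, 43 of them from KCl libraries.

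Nearest to the Kcnf1 start site was the TAPE at chr6:42459222-42461195, centred 13.5 kb downstream and separated from the end of the gene by 9870 bases, with an r of 0.817. Its CPKM was 0, 0.0279 and 0.0150 in cortex vehicle libraries and 0.0873, 0.0511 and 0.0593 in cortex KCl libraries. Elsewhere it was read in 1 library of each group, at 0.0174 in hippocampus vehicle, 0.0338 in hippocampus KCl, 0.0204 in striatum vehicle and 0.0374 in striatum KCl. The 3 cortex KCl libraries lay above all 16 others for this TAPE and for the one 140.4 kb downstream, as they did for 0.45% of tested TAPEs. Both TAPEs together held 105 reads. Over all TAPEs, 68.9 to 75.2% of a library's nonzero values were even numbers of reads, so a value of 2 reads may be 1 fragment with both mates counted.

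**Figure D3:**
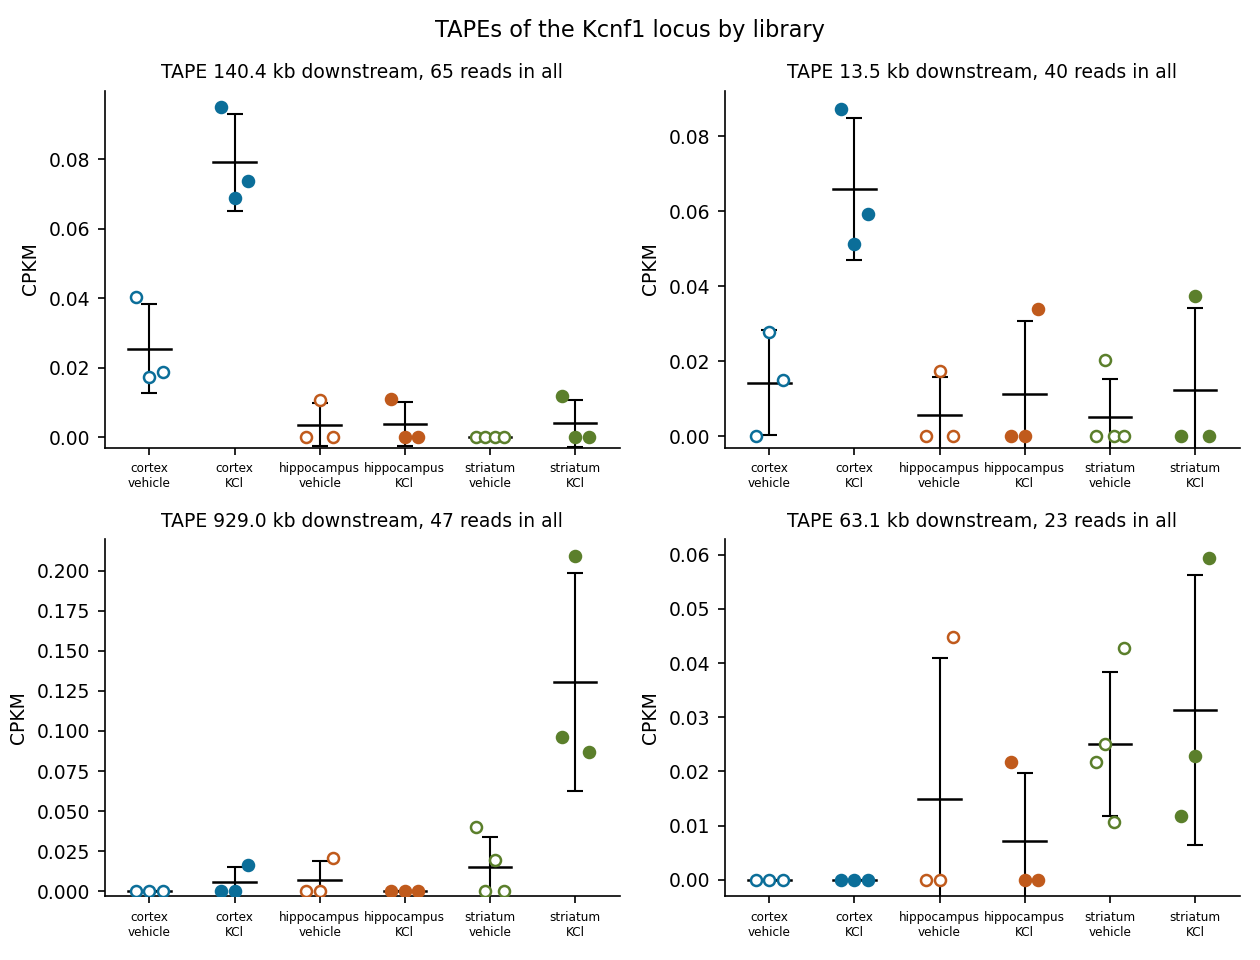
CPKM of 4 TAPEs of the Kcnf1 locus in each library, by region and treatment, with open points for vehicle, filled points for KCl, and lines and bars for the group mean and SD. The upper pair, 140.4 and 13.5 kb downstream, is highest in cortex KCl libraries, and the lower pair, 929.0 and 63.1 kb downstream, has its highest group mean in striatum KCl; vertical scales differ between panels, and bars that reach below 0 end at the axis.

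With r computed from the recovered profile, both relations rested on cortex. Within the 6 cortex libraries r was 0.947 for each of the pair. Over the 13 libraries of hippocampus and striatum it was 0.019 for the TAPE 140.4 kb downstream and 0.035 for that 13.5 kb downstream, where 10 and 9 of the 13 values were 0. Over the 10 vehicle libraries it was 0.612 and 0.299. Leaving out any 1 library gave 0.887 to 0.940 for the first and 0.713 to 0.862 for the second, and by ranks (Spearman's rho, n = 19 libraries) the values were 0.740 and 0.484.

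**Figure D4:**
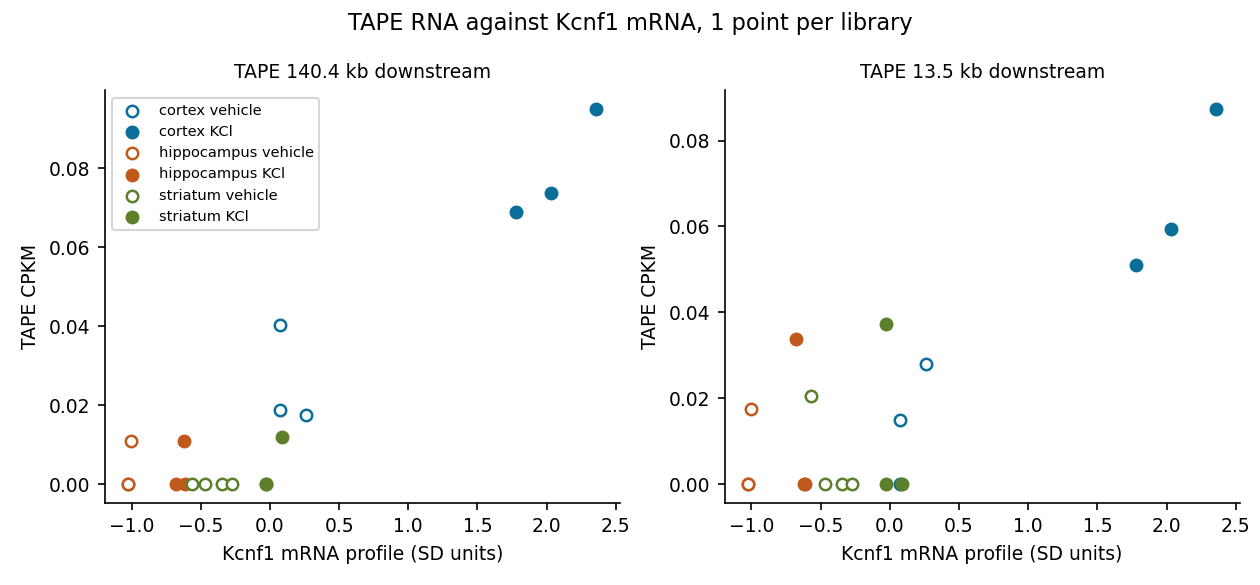
CPKM of the TAPEs 140.4 kb and 13.5 kb downstream (vertical axes) against the Kcnf1 mRNA profile in SD units (horizontal axes), 1 point per library. In both panels the 3 cortex KCl libraries stand alone at the upper right, and the libraries of hippocampus and striatum reach at most 0.0119 CPKM on the left and 0.0374 on the right.

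The first question was whether any TAPE of the locus responded to KCl. In limma on log2(CPKM + 0.02), 0 of the 11 tested members passed an adjusted p of 0.05 in cortex, in hippocampus or in striatum, and neither did any of all 10231 tested TAPEs (0%), of which 693, 730 and 975 had an unadjusted p under 0.05. Of the members, 2, 0 and 2 had one. The study, by its own analysis, reported TAPEs altered by KCl in each of the 3 regions. As the test here called no TAPE at all, 0 of 11 members cannot tell an absent response from a test too weak to call one. With limma voom on recovered reads, members passed in 0 cases and 38, 0 and 46 of all TAPEs did. In cortex the log2 difference was 1.15 (SE 0.298, limma adjusted p = 0.424) for the TAPE 140.4 kb downstream and 1.39 (SE 0.424, limma adjusted p = 0.518) for that 13.5 kb downstream, which placed them at ranks 202 and 332 of all TAPEs by p. In hippocampus the differences were 0.0027 and 0.17, and in striatum 0.22 and 0.25. Leaving out hippocampus vehicle replicates 1 or 3 or hippocampus KCl replicate 1 turned the sign of the first hippocampal difference, and leaving out hippocampus KCl replicate 3 turned that of the second (-0.30). Leaving out striatum KCl replicate 5 turned the second striatal difference (-0.25).

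With 1 common KCl effect over all regions, 1.03% of tested TAPEs were called, 0.371% higher and 0.655% lower, and 0 of the 11 members (1 with an unadjusted p under 0.05). The KCl effect differed between regions for 0.0195% of tested TAPEs and for 0 members (1 with an unadjusted p under 0.05). The adjusted p of that limma F-test was 0.834 for the TAPE 140.4 kb downstream and 0.848 for that 13.5 kb downstream. A KCl effect particular to cortical cultures was therefore not shown for either. Over all tested TAPEs the median log2 KCl differences were -0.071 (cortex), -0.078 (hippocampus) and -0.108 (striatum).

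The second question was whether TAPEs of the locus differed between regions. With both treatments of a region pooled, 4 of the 11 members passed, against 23.7% of all tested TAPEs. Members high in a single region reached the filter on low values through that region. Without the filter 4 of 43 passed, against 7.61% of all TAPEs, which is near the background. The TAPE 140.4 kb downstream was higher in cortex than in hippocampus (log2 difference 1.51, SE 0.339, limma adjusted p = 0.00312) and than in striatum (1.63, SE 0.327, limma adjusted p = 0.000339). It was the single member called between cortex and hippocampus, where 5.63% of TAPEs were called (2.56% higher and 3.07% lower in cortex). Without the filter 1 of 43 passed there, against 1.57% of all TAPEs. On recovered reads in limma voom these log2 differences were 3.21 and 3.58. The study shows a TAPE of this locus with Kcnf1 as its cortical example, chosen on these libraries, so this region difference is not independent evidence. In vehicle libraries alone the differences were 0.94 (limma adjusted p = 0.27) and 1.15 (limma adjusted p = 0.0575).

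The TAPE 13.5 kb downstream did not pass, with log2 differences of 1.00 (SE 0.392, limma adjusted p = 0.139) from hippocampus and 1.02 (SE 0.378, limma adjusted p = 0.0643) from striatum. Leaving out cortex vehicle replicate 1, in which it had no reads, gave 1.27 and 1.30 (limma adjusted p = 0.0479 and 0.0179), and leaving out striatum vehicle replicate 4 or striatum KCl replicate 5 gave adjusted p-values of 0.048 and 0.026 for cortex against striatum. On recovered reads in limma voom it passed over the 3 regions (adjusted p = 0.0427) and between cortex and striatum (adjusted p = 0.0466). It reached the filter on low values through cortex, and its high r with Kcnf1 mRNA also favours cortex. These calls in alternatives are thus not separate support.

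Between cortex and striatum, where 13.4% of TAPEs were called (6.18% higher and 7.26% lower in cortex), 4 members passed, 2 in each direction. Without the filter on low values 4 of 43 (9.3%) passed, against 4.05% of all TAPEs. Beside the TAPE 140.4 kb downstream, that at chr6:41925370-41927426, 547.3 kb downstream, was higher in cortex (log2 difference 1.34, limma adjusted p = 0.014). Its CPKM was 0.0156, 0.0871 and 0.123 in cortex vehicle libraries, 0.0838, 0.123 and 0.0498 in cortex KCl libraries, 0 to 0.0502 in hippocampus and 0 to 0.0587 in striatum. The regions thus overlapped, through cortex vehicle replicate 1 and cortex KCl replicate 3. Its r with Kcnf1 was 0.566, but 0.097 within cortex, and Kcnf1 ranked 5 by r among its 13 paired genes. Nol10 had the highest r with it (0.670), and Ntsr2, whose start site was nearest at 9266 bases, had 0.659. Ntsr2 covered chr6:41917132-41923542 on the plus strand, so the TAPE lay past its end.

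Far downstream, at 929 kb, the TAPE at chr6:41543891-41545654 was lower in cortex than in striatum (log2 difference -1.43, limma adjusted p = 0.0138) and lower in hippocampus than in striatum (-1.41, limma adjusted p = 0.0108). In striatum its CPKM was 0.0399, 0, 0.0196 and 0 in vehicle libraries and 0.0963, 0.209 and 0.0869 in KCl libraries, while 1 of 6 cortex libraries (0.0166) and 1 of 6 hippocampus libraries (0.0205) had reads. Every striatum KCl library lay above the 16 others, which held for 1.21% of tested TAPEs (above the striatum vehicle libraries alone, for 3.15%). This TAPE reached the filter on low values through its striatum KCl libraries, so its calls and this share are not separate support. Its KCl difference in striatum was 2.18 (SE 0.508, limma adjusted p = 0.277). In a single fit of all 6 groups the same difference passed (SE 0.461, limma adjusted p = 0.0193). That fit adds no striatum library and takes its spread also from cortex and hippocampus libraries, most of them without reads here. In vehicle libraries alone neither region difference passed (limma adjusted p = 0.425 and 0.70). Its r with Kcnf1 mRNA was -0.0134, and over its 9 paired genes Trib2 had the highest r.

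The TAPE at chr6:42409789-42411402, 63.1 kb downstream, had no read in any of 6 cortex libraries and 1 to 5 reads in each of 7 striatum libraries, a separation that 2.6% of tested TAPEs showed. Without cortex reads, it reached the filter on low values through the other regions. Its CPKM in striatum ran from 0.0107 to 0.0594. Against a floor of 3 fragments, taken as 6 reads, over the cortex libraries, the observed striatum level was 2.79-fold higher. The floor allows for counting error in cortex alone, not in the 17 striatum reads, so this fold is not a lower limit. The fitted log2 difference was -1.18 (limma adjusted p = 0.0121). Leaving out striatum KCl replicate 7 took its test over 3 regions to a limma adjusted p of 0.053. The neighbouring TAPE at chr6:42421823-42423570, 51.0 kb downstream, had no read in hippocampus and 16 reads in striatum. Its observed striatum level was 2.4-fold above the same floor, with the same limit (fitted log2 difference -0.99, limma adjusted p = 0.0303). Of these reads 12 came from the 3 KCl libraries and 4 from the 4 vehicle libraries, and under vehicle alone no fold is given, as both regions were below the floor. Without striatum KCl replicate 1 or 7 it did not pass (limma adjusted p = 0.0642 and 0.0792). Both lay closer to Kcnf1 than to any other start site, with an r of -0.302 and 0.107.

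Between hippocampus and striatum 21.9% of TAPEs were called (9.79% higher and 12.1% lower in hippocampus), and 3 members passed, all lower in hippocampus. Without the filter on low values 1 of 43 (2.33%) passed, against 6.81% of all TAPEs. The most transcribed member, at chr6:41793762-41796194 and 678.8 kb downstream, was lower in hippocampus than in striatum (log2 difference -1.09, limma adjusted p = 0.0211). Its CPKM was 0, 0.149 and 0.0447 in hippocampus vehicle libraries, 0.0548 to 0.0797 in hippocampus KCl, 0.128 to 0.215 in striatum vehicle and 0.0788 to 0.109 in striatum KCl. Without hippocampus vehicle replicate 1, which had no reads here, the difference was -0.72 (limma adjusted p = 0.113). In striatum the KCl libraries lay below every vehicle library, as for 4.01% of tested TAPEs (log2 difference -0.76, SE 0.201, limma adjusted p = 0.334). In vehicle libraries alone it was the member that still passed between hippocampus and striatum (-1.69, limma adjusted p = 0.0402). Its r with Kcnf1 was -0.00262, and E2f6 had the highest r with it (0.721). The nearest start site was that of Lpin1 (r = 0.580), which covered chr6:41799749-41870046 on the minus strand, so the TAPE lay past its end.

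The remaining TAPEs, named for their level or r, either passed no test or were too low to test. That at chr6:41773560-41776094, 698.9 kb downstream, was the second most transcribed (mean CPKM 0.0507) and was read in all 19 libraries. Those at chr6:42303680-42305449 (r = 0.639) and chr6:42117755-42119602 (r = 0.604), 169.2 and 355.1 kb downstream, held 19 and 14 reads and were not tested. For the former, 10 of those reads came from cortex KCl libraries, which had 0.0165 to 0.0570 CPKM, against 1 read in cortex vehicle libraries. The lowest r belonged to upstream TAPEs, at chr6:42522551-42524212 (-0.412, 12 reads, 10 of them in hippocampus) and chr6:42748946-42750702 (-0.339, 27 reads, 0 of them in cortex KCl libraries).

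Genes around Kcnf1 were compared with it by their profiles. Of 17 genes with a start site within 1 Mb and at least 1 shared TAPE, 3 had an r above 0.5 with Kcnf1 mRNA over 19 libraries and 5 had one below 0, against 10.3% and 57.8% of all other genes with a profile. Among the most alike were Pdia6, a protein disulfide isomerase (0.648), Ntsr2, a neurotensin receptor (0.547), Nol10, a nucleolar protein (0.528), and Asap2, an Arf GTPase-activating protein (0.422). The least alike were LOC690276 (-0.449), Itgb1bp1, an integrin-binding protein (-0.416), and Cpsf3, the nuclease that cuts pre-mRNA at its end (-0.380). By the exact permutation test 1 of the 17 rose with KCl and 2 fell, against 6.81% and 16.8% of all genes. Those that fell were E2f6, a transcriptional repressor (-0.64 SD units, adjusted p = 0.0371), and Cpsf3 (-1.55, adjusted p = 0.0017). In Cpsf3 every KCl library lay below every vehicle library in each region, as in 2.56% of genes. Every KCl library lay above in each region for 0 of the 17, against 2.47% of genes.

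Among the potassium channel genes described here Kcnf1 was the single one called higher with KCl. A profile was recovered for 27 of 31 genes, of which 1 rose and 6 fell, against 6.81% and 16.8% of all genes. Of the 7 silent subunits with a profile, Kcnf1 rose, Kcng2 fell (-0.174 SD units, exact permutation adjusted p = 0.0181) and 5 did not pass. Of 20 other voltage-gated channel genes 5 fell and 15 did not pass. Those that fell were Kcnq3, a subunit of the M-current channel (-1.03, adjusted p = 0.0148), Kcna5, a Kv1 subunit (-0.219, adjusted p = 0.0273), and the ether-a-go-go family members Kcnh1 (-0.306, adjusted p = 0.00735), Kcnh2 (-0.125, adjusted p = 0.0483) and Kcnh3 (-0.18, adjusted p = 0.00651), all by the exact permutation test. Differences are in each gene's own SD units and are not comparable in size between genes. With ranks in place of values 5 of the 27 were called, and leaving out any 1 library left 5 to 8.

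**Figure D5:**
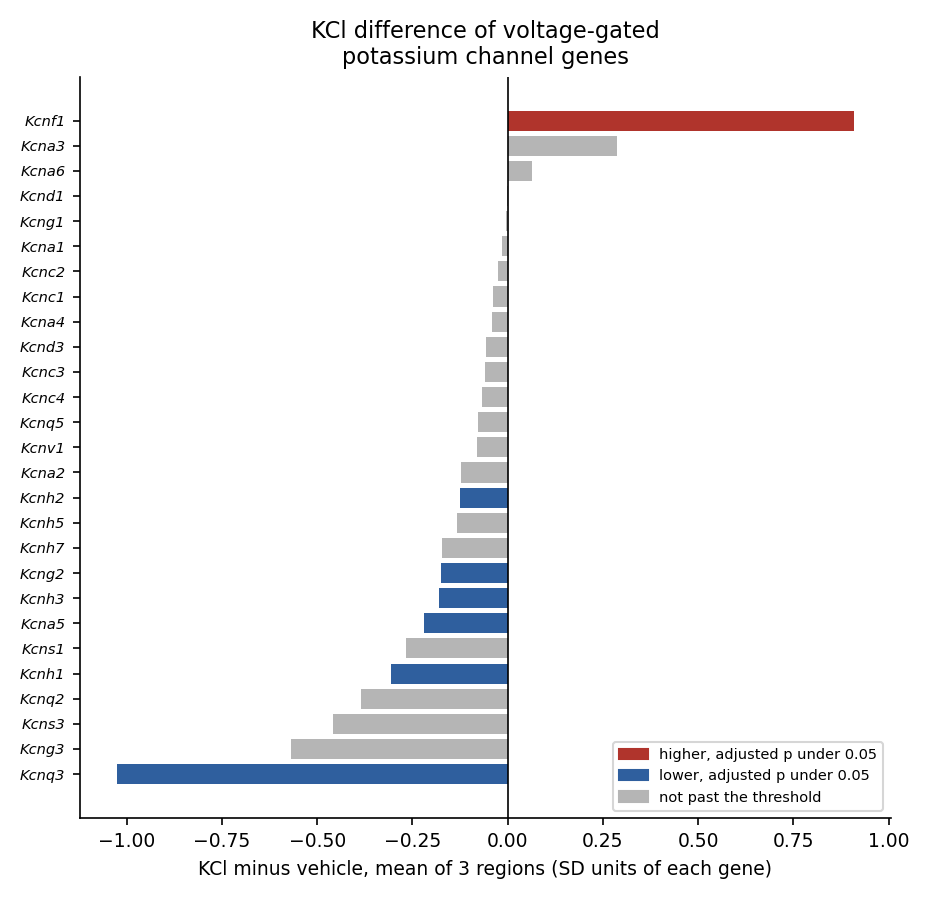
KCl minus vehicle difference of 27 voltage-gated potassium channel genes, averaged over 3 regions, in SD units of each gene (horizontal axis). Kcnf1 (red, 0.909) is the single gene called higher, 6 genes (blue) were called lower, and grey bars did not pass an adjusted p of 0.05.

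Genome-wide, the genes whose profile was most like that of Kcnf1 were, by Pearson's r over 19 libraries, the phosphate transporter gene Slc20a1 (0.977), the RNA-binding protein gene Mex3b (0.975), the endothelial lipase gene Lipg (0.971), the neuropeptide Y receptor gene Npy1r (0.964) and the actin regulator gene Jmy (0.963). Kcnf1 mRNA was highest in cortex KCl libraries, so a choice by r with it favours genes high there. In 5 of 5 every cortex KCl library lay above every cortex vehicle library, against 8.39% of all genes with a profile. For Npy1r alone among them did this hold in all 3 regions, as for Kcnf1, while the group means of Slc20a1 were -0.779 and -0.786 in hippocampus and -0.229 and -0.227 in striatum, vehicle and KCl. Among 1868 TAPEs elsewhere whose mean CPKM reached 0.05, the most alike were chr4:77413446-77416130 (r = 0.855, nearest start site that of Ezh2), chr20:26676899-26679372 (0.854, Herc4), chr17:22405294-22406953 (0.852, Hivep1), chr7:138045430-138047641 (0.849, Slc38a1) and chr8:46183251-46185963 (0.839, Sc5d). TAPEs of lower level were not searched.

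As checks on the libraries, 8 of 8 depolarization-induced early genes (Fos, Fosb, Junb, Npas4, Nr4a1, Arc, Egr1 and Egr2) rose with KCl. Markers of pallial glutamatergic neurons were highest in cortex for 6 of 7, of hippocampal neurons in hippocampus for 2 of 2, and of striatal projection and GABAergic neurons in striatum for 6 of 6 and 5 of 5. Of 4 astrocyte markers 3 were highest in hippocampus and 1 in cortex, and of 4 oligodendrocyte lineage markers 2 were highest in each of these; the 1 microglial marker recovered was highest in hippocampus. Profiles give no levels, so the amount of glia in the cultures, and its part in the region differences, was not tested. By the totals recovered from the CPKM values, which are larger than the read numbers in the labels, libraries held 46411271 to 72521193 reads, of which 47431 to 83272 lay in TAPEs and 20 to 102 in the 43 TAPEs of Kcnf1.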

How the data were processed

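TAPE values and correlations were taken from the deposited table. The authors trimmed reads with Trim Galore (0.4.5), aligned them with STAR to Rn6, merged files with SAMtools (1.9) and counted reads over TAPEs in SeqMonk. The deposited RPKM values (CPKM) are reads per kb and per 1000000 library reads, not log transformed, and the correlations are a deposited score, Pearson's r between -1 and 1. Multiplied by TAPE length and by a library total, 100% of values came out as whole reads (tolerance 0.01 reads), and these totals are the depths given. TAPE tests used limma 3.58.1 in R 4.3.3 (eBayes with trend, two-sided) on log2(CPKM + 0.02) for 10231 TAPEs (mean CPKM 0.01 or more), with Benjamini-Hochberg adjustment over all. Region tests pooled treatments, and the interaction test used all 19 libraries. Recovered reads were tested with limma voom as an alternative, and the authors' DESeq2 test was not run. Gene profiles were solved from the deposited correlations for 15191 of 17715 genes (85.8%). For the others they were not determined (2456) or the gene had several positions (68). KCl was tested on profiles by an exact permutation of treatment within region. The tests were tried on simulated data. The study's methods call the libraries biological replicates, and the labels do not tie them to separate litters. Counting intervals and floors cover counting error only, as reads carried no molecular identifiers. A floor covers it for the group without reads alone. TAPEs named in the text were the nearest to the start site, the 5 of highest level, the 5 of highest and 2 of lowest r, and all that passed a test. Neighbours were named for the 5 highest and 3 lowest r or a passed test, and genes and TAPEs elsewhere for the 5 highest r. Genes with the highest r for a single TAPE (Trib2, E2f6, Nol10) and the gene nearest to a called TAPE (Lpin1) were named after their values were seen. Some genes that the lists and naming rules covered are not reported here. The members, lists and rules were chosen with earlier results of these data known.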

Additional observations from a re-analysis of the deposited data

Results flagged for a closer look

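In striatum vehicle, the group of 4 libraries, 13 sets of values were examined (Kcnf1 mRNA and the named TAPEs), and 2 had a library far from the rest by Dixon's test. The test marks any set with 1 value above 0 and the others at 0, as both were, so its chance rate of about 1 in 20 sets does not hold for them. The TAPE at chr6:42303680-42305449, 169.2 kb downstream of Kcnf1, was at 0.0199 CPKM in 1 library and at 0 in the 3 others. The TAPE at chr6:42459222-42461195, 13.5 kb downstream, was at 0.0204 CPKM in striatum vehicle replicate 4 and at 0 in the 3 others. Both values came from 2 reads each.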

How the results depend on the processing

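Of the alternatives to counts and main values, 231 kept the result and 20 moved it. Small changes of a count were taken as kept, for example 2 to 4 members in place of 3 between hippocampus and striatum with any 1 library left out. KCl counts of members that stayed at 0 were also among those kept. For TAPEs taken singly, 592 alternatives kept the result, 13 turned its sign, 17 lost the call and 11 gained it. The Kcnf1 mRNA call kept its direction and side of the threshold in all: the difference was 0.858 to 0.956 SD units when any 1 library was left out (adjusted p up to 0.00485).

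Vehicle libraries alone gave 0 called members for region dependence, cortex against hippocampus and cortex against striatum, and 1 for hippocampus against striatum. A minimum mean CPKM of 0.05, with a pseudocount of 0.02 or 0.05, left 2 members to test, of which 1, 0, 0 and 1 were called in these comparisons (for region dependence, 889 of all TAPEs at a pseudocount of 0.02, against 2425). Between cortex and hippocampus a pseudocount of 0.05 and treatment as a covariate each gave 2, and leaving out 1 library gave 1 to 3 (3 without cortex vehicle replicate 1, and 2 without hippocampus vehicle replicate 2, hippocampus KCl replicate 1 or striatum vehicle replicate 6). Between hippocampus and striatum no filter gave 1. In striatum 1 fit of all 6 groups called 1 member with KCl. The difference of the TAPE 13.5 kb downstream between hippocampus and striatum turned to -0.0157 with treatment as a covariate and ran from -0.18 to 0.22 with 1 library left out; its KCl difference ran from -0.30 to 0.48 in hippocampus and from -0.25 to 0.51 in striatum, and that of the TAPE 140.4 kb downstream from -0.21 to 0.21 in hippocampus. Apart from the filters, which leave fewer TAPEs, and vehicle alone, which leaves fewer libraries, the cause was not tested. limma voom used library totals without TMM scaling.

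Libraries of the same replicate number did not deviate together in TAPE values (correlations of deviations from -0.007 to 0.017). Many tested TAPEs held few reads per library, and counting noise holds such correlations near 0. Pairing can therefore not be excluded by them. With the replicate number as a block, 0 members were called with KCl in cortex and in hippocampus and 1 between cortex and hippocampus, with 366 of all TAPEs called in place of 576. For Kcnf1 mRNA the blocked difference was 0.909 (exact permutation p = 0.00045, the smallest possible, adjusted p = 0.00743). No paired analysis was possible within striatum because its treatments share no numbers. Depth also limits the locus, as 32 of 43 TAPEs were too low to test.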
